A study of Rattus norvegicus with 37 samples.

Results

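Hspa5 (ENSRNOG00000018294), Calr (ENSRNOG00000003029), Atf4 (ENSRNOG00000017801), Ddit3 (ENSRNOG00000006789), Trib3 (ENSRNOG00000007319) and Asns (ENSRNOG00000007546) are genes of the responses to endoplasmic reticulum stress and to lack of amino acids. They were taken by their Ensembl identifiers and make up 6 of the 24613 rows of a table of read counts from rat liver. When unfolded proteins build up in the endoplasmic reticulum, the sensor ATF6 and the IRE1 branch, which acts through XBP1, raise the genes of chaperones, among them the protein products of Hspa5 (BiP) and Calr (calreticulin). A separate sensor, PERK, and the amino acid sensor GCN2 slow translation and favour translation of the transcription factor ATF4, which drives Ddit3 (CHOP), Trib3 and Asns. Liver cells secrete most plasma proteins and therefore hold much endoplasmic reticulum, and ATF4 itself is controlled largely at translation, which mRNA counts do not measure.

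The livers came from 37 female Sprague-Dawley rats, estimated from weight to be 8-9 weeks old at the time of injury, with 1 poly-A library per rat. In the SCI + In-Cage Activity set, 5 uninjured rats lived in standard cages (No SCI + Standard), 5 rats with a T2 contusion of the spinal cord lived in tiny cages (CONT SCI + Tiny) and 5 rats with the same contusion lived in large cages (CONT SCI + Large). In the SCI + Exercise set, every rat lived in a tiny cage: 4 uninjured rats (No SCI), 4 with a contusion (CONT SCI), 4 with a complete transection at T2 (TX SCI), 5 with a contusion that swam (CONT SCI + SWIM) and 5 with a contusion that walked in shallow water (CONT SCI + SWW). By the labels, livers were taken 11.5 weeks after contusion and 8.5 weeks after transection, with uninjured rats at the equivalent age of the former. The methods of the study give a later collection for the exercised rats than the labels do. Time after injury therefore differs between transection and contusion, and cannot be told apart from the type of injury. If the methods are right, exercise likewise cannot be told apart from time after injury in the comparisons of exercised rats with CONT SCI and No SCI. In the SCI + In-Cage Activity set, injury cannot be told apart from cage size when injured rats are compared with No SCI + Standard. Rats were housed in pairs, and which rats shared a cage was not analysed here.

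A library held 20066978 to 25130252 counted reads among the SCI + In-Cage Activity rats and 26190364 to 36761953 among the SCI + Exercise rats. The ranges do not overlap, so depth, like anything else that differed between the sets, cannot be told apart from the sample set. CONT SCI + SWIM replicate 3 had the fewest genes with a read, 13648, where the other 36 libraries had between 14682 and 15706. Levels below are CPM, that is counts scaled to a common library size, after TMM normalisation over the 37 libraries. They are not per length, so they are compared between groups and never between genes. In bulk liver, fewer cells of a type and less RNA per cell cannot be told apart.

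Promoter sequence was examined because the factors of these pathways bind defined DNA elements. A search of the RefSeq promoters (GRCr8 build, 250 bases before to 50 bases after each gene's start, 6 of 6 genes matched by symbol) covered both strands for 4 patterns. These were the ER stress response element (ERSE: CCAAT, any 9 bases, CCACG), the core TGACGTGG of the unfolded protein response element, the core TGATGNAA of the C/EBP-ATF composite element, and the cyclic AMP response element TGACGTCA. The ERSE was present in Hspa5 and Calr and in 22 of all 33469 promoters (0.0657%). In Hspa5 it read forward from position -43 to -25 relative to the gene's start, and in Calr it read on the opposite strand from -232 to -214. The C/EBP-ATF core was present in Trib3 alone of the 6 genes, on the opposite strand from -21 to -14, and in 1332 promoters (3.98%). The unfolded protein response core was in 199 promoters (0.595%) and the cyclic AMP response element in 612 (1.83%), with 0 of the 6 genes holding either. These patterns do not overlap one another in these promoters. The 3 stretches with a match are shown 5′ to 3′ in the direction of the gene, with the matched bases in capitals, since they are where the chaperone genes and Trib3 carry different elements.
Hspa5, chr3:38452896-38453015 (+ strand), positions -120 to -1: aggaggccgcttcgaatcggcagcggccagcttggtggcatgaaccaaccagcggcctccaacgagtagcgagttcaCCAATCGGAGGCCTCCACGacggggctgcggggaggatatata
Calr, chr19:40213117-40213236 (+ strand), positions -250 to -131: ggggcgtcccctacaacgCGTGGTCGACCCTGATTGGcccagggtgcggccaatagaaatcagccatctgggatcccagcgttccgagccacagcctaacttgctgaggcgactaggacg
Trib3, chr3:161275534-161275653 (- strand), positions -120 to -1: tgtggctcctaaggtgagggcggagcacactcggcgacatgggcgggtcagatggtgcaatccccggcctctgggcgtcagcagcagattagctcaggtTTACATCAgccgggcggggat
A match is a description of the letters and not a measurement of binding. Sequence outside these windows and elements with other letters were not searched, so a gene without a match may still carry the element.

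**Figure D1:**
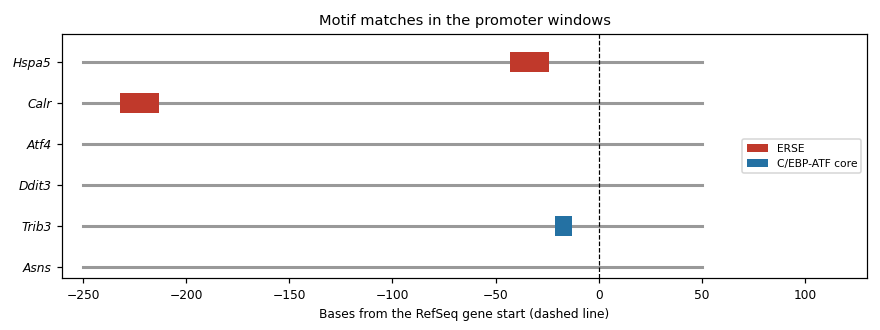
Position of the pattern matches (boxes) in the promoter of each gene, in bases from the RefSeq gene start (dashed line), with grey lines for the searched window. The ERSE lies at -43 to -25 in Hspa5 and at -232 to -214 in Calr, and the C/EBP-ATF core at -21 to -14 in Trib3.

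Differences between groups were tested over all genes with edgeR's quasi-likelihood test, with p-values adjusted by the Benjamini-Hochberg method in each comparison and a call at an adjusted p under 0.05. Over 16 comparisons the 6 genes gave 96 tests, of which 33 (34.4%) had an unadjusted p under 0.05 and 4 (4.17%) were called. Over all genes, 20.7% of the tests in these comparisons had an unadjusted p under 0.05 and 6.81% were called. In the 11 comparisons within a sample set it was 23 (34.8%) and 1 (1.52%) of 66 tests for the 6 genes, beside 15.1% and 1.21% over all genes. The 6 genes were chosen with earlier results of these data known, so these shares are no test of them. Of the 33 unadjusted p under 0.05, Hspa5 gave 11, Trib3 8 and Calr 7. The calls were Hspa5 in CONT SCI + Tiny against No SCI + Standard, Hspa5 and Atf4 in No SCI against No SCI + Standard, and Ddit3 in CONT SCI against CONT SCI + Tiny. The last 2 comparisons cross the sample sets. Comparisons with the same uninjured or contused rats share those rats and are not independent of each other.

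Hspa5 encodes BiP, the main Hsp70 chaperone of the endoplasmic reticulum. Its level was 1524, 1631, 1749, 2320 and 2435 CPM in the 5 No SCI + Standard rats. It was 1017, 1332, 1082, 1052 and 1168 CPM in the CONT SCI + Tiny rats. In the CONT SCI + Large rats it was 1186, 1061, 1041, 1117 and 1471 CPM. Every uninjured rat in a standard cage was thus above every contused rat of the same set, and also above every other rat of the series, whose highest level was 1471 CPM. The share of all genes that part these rats in the same way was not counted. No SCI against No SCI + Standard called 51.4% of all genes.

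The level of Hspa5 in the SCI + Exercise set was 1093, 864, 955 and 1220 CPM in No SCI. It was 1007, 1333, 948 and 1139 CPM in CONT SCI, and 674, 856, 760 and 1019 CPM in TX SCI. The uninjured and contused rats of this set overlapped throughout, and 3 of 4 TX SCI rats lay below the lowest rat of each of those groups. With swimming the level was 793, 968, 670, 804 and 587 CPM, and with shallow water walking it was 1056, 650, 847, 681 and 733 CPM. In each exercised group 4 of 5 rats were below the lowest CONT SCI rat.

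Ordered by mean, Hspa5 stood at 1932 ± 417 CPM (SD, n = 5) in No SCI + Standard, followed by CONT SCI + Large (1175 ± 175, n = 5), CONT SCI + Tiny (1130 ± 126, n = 5), CONT SCI (1107 ± 171, n = 4), No SCI (1033 ± 156, n = 4), TX SCI (827 ± 148, n = 4), CONT SCI + SWW (793 ± 165, n = 5) and CONT SCI + SWIM (764 ± 145, n = 5). Among neighbours in this order, only the step from No SCI + Standard to CONT SCI + Large and the step from No SCI to TX SCI exceeded the larger of both groups' SDs.

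Hspa5 fell in CONT SCI + Tiny against No SCI + Standard, with a log2 fold change of -0.78 (SE 0.15, edgeR adjusted p = 0.0243), or 0.584 times the uninjured level. Of all genes tested in that comparison, 12.5% were called, and 1 of the 6 genes. This call was lost without CONT SCI + Tiny replicate 1 (adjusted p = 0.0553), without CONT SCI + Tiny replicate 3 (0.0605) or without No SCI + Standard replicate 4 (0.06), with log2 fold changes of -0.74, -0.75 and -0.70. CONT SCI + Large against No SCI + Standard gave a log2 fold change of -0.72 (SE 0.16) that did not pass the test (adjusted p = 0.0635), in a comparison where only 0.0337% of genes were called and 0 of the 6. DESeq2 called Hspa5 there (adjusted p = 0.00335), with 12.5% of genes called, and so did edgeR with the groups of the set in 1 fit (adjusted p = 0.0262), with 7.72% called. Without CONT SCI + Large replicate 1 or No SCI + Standard replicate 1, edgeR called it with adjusted p of 0.0287 and 0.0266. The share of all genes called in these fits is not reported here. In the first of these fits the log2 fold change was -0.725, with a wider SE of 0.18. These were 2 of 10 fits that left out 1 rat, with adjusted p up to 0.182. Of the 5 alternative fits described below, 3 called it, with adjusted p up to 0.221.

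Between the large and tiny cages the level of Hspa5 differed by 0.06 on the log2 scale (SE 0.13, adjusted p = 1.0). In that comparison edgeR called 0.0% of genes, with 346 of 11920 genes at an unadjusted p under 0.05, and DESeq2 called 3 genes.

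In the SCI + Exercise set, where uninjured rats also lived in tiny cages, CONT SCI against No SCI gave Hspa5 a log2 fold change of 0.09 (SE 0.16, adjusted p = 0.998), with 0.00801% of genes called and 0 of the 6. The contusion difference of Hspa5 in the SCI + Exercise set minus that of CONT SCI + Tiny against No SCI + Standard was 0.85 on the log2 scale (SE 0.22), which did not pass the test of the difference between sets in edgeR (adjusted p = 0.0739, 0.199% of genes called). DESeq2 called this difference (adjusted p = 0.0118, 7.31% of genes called), and edgeR called it without No SCI replicate 2 (0.78, adjusted p = 0.0321, 15.9% of genes called) or without No SCI + Standard replicate 1 (0.93, adjusted p = 0.0306). Those were 2 of 18 fits that left out 1 rat, with adjusted p up to 0.142. The share of all genes called without No SCI + Standard replicate 1 is not reported here. The cage of the uninjured rats, the depth and the sample set differ together in this contrast. Averaged over both sets, the contusion log2 fold change of Hspa5 was -0.34 (SE 0.11, adjusted p = 0.252), with 0.0239% of genes called.

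The uninjured rats of both sets differed in the same gene. Hspa5 was lower in No SCI than in No SCI + Standard by a log2 fold change of -0.88 (SE 0.18, edgeR adjusted p = 0.00202), or 0.543 times, and the call held without each of the 9 rats in turn. This comparison called 51.4% of all genes and 2 of the 6, and cage and sample set cannot be told apart in it.

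Against CONT SCI, the log2 fold change of Hspa5 was -0.53 (SE 0.16, adjusted p = 0.223) in CONT SCI + SWIM and -0.46 (SE 0.16, adjusted p = 0.126) in CONT SCI + SWW. Neither passed edgeR's test, in comparisons that called 0.008% and 0.759% of genes. The mean of both exercised groups against CONT SCI was -0.50 (SE 0.14, adjusted p = 0.0953), with 0.655% of genes called. DESeq2 called Hspa5 for that mean (adjusted p = 0.0346, 5.37% of genes called) and for CONT SCI + SWW (adjusted p = 0.049, 7.18% called). Without CONT SCI + SWW replicate 1, which had 1056 CPM, edgeR called the latter as well (-0.59, adjusted p = 0.0498). That was the 1 call in 9 fits that left out 1 rat, with adjusted p up to 0.291. The share of all genes called without CONT SCI + SWW replicate 1 is not reported here. Leaving out CONT SCI + SWIM replicate 3, the library with the fewest genes detected, changed the swimming value to -0.47 (adjusted p = 0.274).

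**Figure D2:**
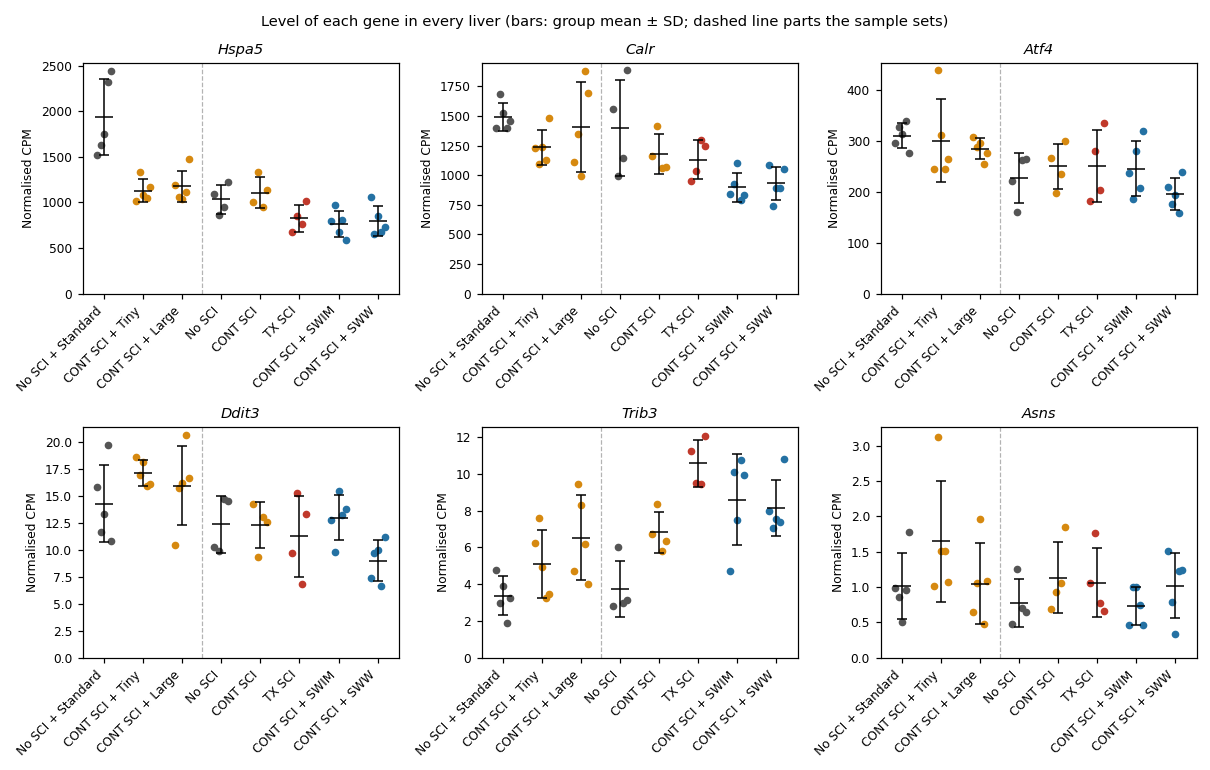
Level of each gene in every liver (points, normalised CPM on a linear axis from 0) in the 8 groups, with black bars for the group mean ± SD and a dashed line between the sample sets. The 5 No SCI + Standard rats lie between 1524 and 2435 CPM for Hspa5, above the other 32 rats, and the 4 TX SCI rats lie between 9.47 and 12.0 CPM for Trib3, above the No SCI and CONT SCI rats. The share of all genes that separate groups in this way was not counted.

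Calr encodes calreticulin, the calcium-binding lectin chaperone of glycoproteins. Its level was 1395, 1688, 1523, 1403 and 1462 CPM in No SCI + Standard, 1230, 1097, 1241, 1125 and 1480 CPM in CONT SCI + Tiny, and 1115, 1347, 992, 1883 and 1694 CPM in CONT SCI + Large. Of the CONT SCI + Tiny rats, 4 of 5 were below the lowest uninjured rat. The CONT SCI + Large rats lay on both sides of the uninjured range, 3 below and 2 above. The log2 fold change was -0.28 (SE 0.12, adjusted p = 0.117) for the tiny cage and -0.09 (SE 0.17, adjusted p = 0.759) for the large cage, and neither passed.

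Among the SCI + Exercise rats Calr was at 1561, 990, 1147 and 1890 CPM in No SCI, 1165, 1418, 1059 and 1069 CPM in CONT SCI, and 950, 1034, 1295 and 1250 CPM in TX SCI. It was lowest in the exercised rats, with 839, 924, 1102, 789 and 831 CPM after swimming and 1084, 738, 892, 892 and 1050 CPM after shallow water walking. Against CONT SCI, 4 of 5 rats of each exercised group were below the lowest rat. The mean was 897 ± 125 CPM (SD, n = 5) in CONT SCI + SWIM and 931 ± 140 CPM (SD, n = 5) in CONT SCI + SWW, beside 1178 ± 167 CPM (SD, n = 4) in CONT SCI and 1494 ± 120 CPM (SD, n = 5) in No SCI + Standard, the highest group. In the order of the 8 means, only the step from TX SCI (1132 ± 167, n = 4) down to CONT SCI + SWW was larger than the SDs.

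The log2 fold change of Calr against CONT SCI was -0.39 (SE 0.13, adjusted p = 0.272) with swimming and -0.32 (SE 0.14, adjusted p = 0.205) with shallow water walking, and -0.36 (SE 0.12, adjusted p = 0.14) for the mean of both. Against No SCI it was -0.63 (SE 0.19, adjusted p = 0.312) and -0.59 (SE 0.20, adjusted p = 0.133). None of these passed edgeR's test. Without No SCI replicate 2, shallow water walking against No SCI was called (-0.73, adjusted p = 0.0288), as were 13.2% of genes. That was the 1 call in 9 fits that left out 1 rat, with adjusted p up to 0.341. Contusion and transection gave -0.25 (SE 0.20) and -0.30 (SE 0.23) against No SCI, and neither passed.

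Atf4 encodes the transcription factor that both the endoplasmic reticulum and the amino acid branch use. Its level in the SCI + In-Cage Activity set was 297, 328, 315, 340 and 277 CPM in No SCI + Standard, 246, 440, 312, 245 and 265 CPM in CONT SCI + Tiny, and 308, 289, 297, 255 and 277 CPM in CONT SCI + Large. These 3 groups overlapped. In the SCI + Exercise set it was 223, 160, 264 and 264 CPM in No SCI, 267, 199, 236 and 301 CPM in CONT SCI, and 182, 282, 204 and 336 CPM in TX SCI. It was 237, 187, 281, 208 and 320 CPM with swimming and 210, 177, 193, 159 and 240 CPM with shallow water walking. No step between neighbouring means was larger than the SDs, from 311 ± 25.1 CPM (SD, n = 5) in No SCI + Standard to 196 ± 31.4 CPM (SD, n = 5) in CONT SCI + SWW.

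Within the sample sets, 0 of 11 comparisons called Atf4 in edgeR, and 1 had an unadjusted p under 0.05. That was CONT SCI + SWW against CONT SCI, at -0.34 on the log2 scale (SE 0.14, adjusted p = 0.202). Across the sets Atf4 was lower in No SCI than in No SCI + Standard (-0.43, SE 0.16, edgeR adjusted p = 0.0433), in the comparison that called 51.4% of all genes. This call was kept in 3 of the 9 fits that left out 1 rat: it was lost without any one of No SCI replicates 1 and 2 and No SCI + Standard replicates 1, 2, 3 and 4, with adjusted p from 0.0527 to 0.105. Without No SCI replicate 2, at 160 CPM, the value moved to -0.28 (adjusted p = 0.0997).

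Ddit3 encodes CHOP, a C/EBP-family factor associated with cell death under prolonged stress, and is a target of ATF4. It was at 15.8, 11.7, 13.4, 19.8 and 10.9 CPM in No SCI + Standard, 18.6, 16.9, 18.1, 15.9 and 16.1 CPM in CONT SCI + Tiny, and 10.4, 15.8, 16.2, 20.7 and 16.7 CPM in CONT SCI + Large. In the SCI + Exercise set it was at 10.3, 9.89, 14.7 and 14.6 CPM in No SCI, 14.2, 9.31, 13.03 and 12.6 CPM in CONT SCI, and 9.67, 15.3, 6.79 and 13.3 CPM in TX SCI. It was at 12.8, 9.77, 15.4, 13.3 and 13.8 CPM with swimming and 7.39, 9.74, 10.0, 6.66 and 11.2 CPM with shallow water walking. The means ran from 17.1 ± 1.20 CPM (SD, n = 5) in CONT SCI + Tiny to 9.01 ± 1.91 CPM (SD, n = 5) in CONT SCI + SWW, and no step between neighbouring groups was larger than the SDs.

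The injured groups did not differ from their uninjured rats in Ddit3 by a test that passed, with log2 fold changes of 0.26 (SE 0.15) and 0.16 (SE 0.20) in the tiny and large cages and of -0.01 (SE 0.18) and -0.13 (SE 0.26) for contusion and transection in the SCI + Exercise set. Shallow water walking gave the lowest values, with a log2 fold change of -0.43 (SE 0.17, adjusted p = 0.175) against CONT SCI, -0.47 (SE 0.19, adjusted p = 0.19) against No SCI and -0.53 (SE 0.16, adjusted p = 0.782) against CONT SCI + SWIM, and none of these passed. Between the 2 kinds of exercise edgeR called 0.0% of genes, with 680 of 12525 at an unadjusted p under 0.05, and DESeq2 called 14.

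The call for Ddit3 was between the contused rats in tiny cages of both sets, where CONT SCI was lower than CONT SCI + Tiny by a log2 fold change of -0.49 (SE 0.13, edgeR adjusted p = 0.00708). The 4 CONT SCI rats, up to 14.2 CPM, all lay below the 5 CONT SCI + Tiny rats, from 15.9 CPM. For these rats, the share of all genes that part the groups without overlap was not counted. The call held without each of the 9 rats in turn and was lost with the groups of both sets in 1 fit (-0.48, SE 0.21, adjusted p = 0.0669). This comparison of groups with the same injury and cage called 45.1% of all genes, and 1 of the 6.

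Trib3 encodes a pseudokinase that ATF4 and CHOP induce, known in liver for binding the kinase AKT. Its level was 4.80, 3.00, 3.89, 1.91 and 3.27 CPM in No SCI + Standard. It was 6.25, 7.59, 4.94, 3.25 and 3.49 CPM in CONT SCI + Tiny and 4.70, 9.45, 8.32, 6.19 and 4.04 CPM in CONT SCI + Large. In both injured groups 3 of 5 rats lay above the highest uninjured rat and 0 below the lowest.

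Trib3 in the SCI + Exercise set was at 2.80, 6.004, 2.99 and 3.13 CPM in No SCI. It was at 6.71, 8.38, 5.83 and 6.36 CPM in CONT SCI and at 11.2, 9.52, 9.47 and 12.0 CPM in TX SCI. The TX SCI rats were above every No SCI and every CONT SCI rat, while 3 of 4 CONT SCI rats were above the highest No SCI rat. With swimming it was at 4.74, 10.1, 7.49, 10.7 and 9.97 CPM, and with shallow water walking at 7.97, 7.07, 7.53, 7.38 and 10.8 CPM. Of the swimming rats 4 of 5, and of the walking rats 5 of 5, were above the highest No SCI rat. How many of all genes part these groups without overlap was not counted. No SCI replicate 2, at 6.004 CPM, stood apart from the other No SCI rats in Trib3. It was also the No SCI rat with the lowest Hspa5, Calr, Atf4 and Ddit3 and with the highest Asns. The Trib3 contrasts that use No SCI within the SCI + Exercise set or over both sets are given below with and without it.

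The means of Trib3 placed TX SCI first (10.6 ± 1.28 CPM, SD, n = 4), then CONT SCI + SWIM (8.61 ± 2.49, n = 5), CONT SCI + SWW (8.16 ± 1.53, n = 5), CONT SCI (6.82 ± 1.10, n = 4), CONT SCI + Large (6.54 ± 2.31, n = 5), CONT SCI + Tiny (5.11 ± 1.84, n = 5), No SCI (3.73 ± 1.52, n = 4) and No SCI + Standard (3.37 ± 1.07, n = 5). Both uninjured groups were thus at the bottom of the order, and in this order over both sets no neighbouring groups differed by more than the larger SD. Within the SCI + Exercise set alone, CONT SCI and No SCI are neighbours. Their means differed by 3.09 CPM, more than the larger SD of 1.52 CPM.

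Trib3 passed edgeR's test in 0 of the 16 comparisons, though its unadjusted p was under 0.05 in 8. TX SCI against No SCI gave the largest log2 fold change of the 6 genes, 1.499 (SE 0.26), or 2.83 times the uninjured level, with an adjusted p of 0.0907 where 0.0638% of genes were called. DESeq2 called it (adjusted p = 5.31e-05, 2.03% of genes called), as did edgeR with the 5 groups of the set in 1 fit (adjusted p = 0.00626, 2.05% called) and edgeR without No SCI replicate 2 (1.83, adjusted p = 0.0126, 0.182% called). The last was the 1 call in 8 fits that left out 1 rat, with adjusted p up to 0.348. Nor did edgeR call it with size factors in place of TMM (adjusted p = 0.0965), without the filter (0.071) or with a block for the replicate number (0.132). CONT SCI against No SCI gave 0.86 (SE 0.26, adjusted p = 0.769), and without No SCI replicate 2 it gave 1.20 (adjusted p = 0.0471) and was called, as were 0.0716% of genes. That was the 1 call in 8 fits that left out 1 rat. Of the 5 alternative fits described below 0 called it, DESeq2 among them (adjusted p = 0.162).

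The exercised groups gave log2 fold changes of Trib3 against No SCI of 1.21 (SE 0.30, adjusted p = 0.218, 0.00796% of genes called) with swimming and 1.12 (SE 0.25, adjusted p = 0.0682, 0.394% called) with shallow water walking. DESeq2 called both (adjusted p = 0.0121 with 1.34% of genes called, and 0.00103 with 6.99%), and so did edgeR with the 5 groups in 1 fit (0.0297 with 0.375%, and 0.025 with 2.08%). Without No SCI replicate 2 edgeR called Trib3 in the walking rats (1.45, adjusted p = 0.013, 13.2% of genes called) and not the swimming rats (1.55, adjusted p = 0.0845). Of 9 fits that left out 1 rat, 1 called it in the walking rats and 0 in the swimming rats. Adjusted p in these fits was up to 0.185 and 0.56.

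Against CONT SCI, Trib3 was higher in TX SCI by 0.62 on the log2 scale (SE 0.16), which edgeR did not call (adjusted p = 0.177, 0.0321% of genes called) and DESeq2 did (adjusted p = 0.0308, 2.54% called). Swimming and shallow water walking gave 0.34 (SE 0.23, adjusted p = 0.559) and 0.27 (SE 0.16, adjusted p = 0.342) against CONT SCI. In the SCI + In-Cage Activity set Trib3 gave 0.60 (SE 0.27, adjusted p = 0.136) in tiny cages and 0.95 (SE 0.27, adjusted p = 0.081) in large cages against No SCI + Standard. DESeq2 called the latter (adjusted p = 0.0186) with 12.5% of genes called, where edgeR's main test called 0.0337%. It was called by edgeR without CONT SCI + Large replicate 1 (adjusted p = 0.0327) or No SCI + Standard replicate 1 (adjusted p = 0.0389). Those were 2 of 10 fits that left out 1 rat, with adjusted p up to 0.2. The share of all genes called in those 2 fits is not reported here.

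Averaged over both sets, contusion in tiny cages gave Trib3 a log2 fold change of 0.73 (SE 0.20, edgeR adjusted p = 0.208), or 1.66 times, and DESeq2 called this mean (adjusted p = 0.047, 0.723% of genes called). The difference between the sets was 0.24 (SE 0.40, adjusted p = 0.722), an SE too wide to show the sets alike. Without No SCI replicate 2 the mean was 0.90 (SE 0.18, adjusted p = 0.0713) and the difference 0.58 (SE 0.36, adjusted p = 0.263), and neither was called.

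Asns encodes asparagine synthetase, which makes asparagine from aspartate and is a target of ATF4. It was at the lower edge of measurement, with 11 to 70 reads per library and a mean of 29.8, so that counting alone gives an SD of 18.3% at the mean. The groups lay between 0.466 and 1.00 CPM in CONT SCI + SWIM, the lowest mean (0.736 ± 0.267, SD, n = 5), and between 1.01 and 3.13 CPM in CONT SCI + Tiny, the highest (1.65 ± 0.859, SD, n = 5). In No SCI + Standard it was at 0.983, 0.856, 0.512, 0.956 and 1.78 CPM and in CONT SCI + Large at 0.645, 1.06, 1.96, 0.483 and 1.09 CPM. It was at 0.471, 1.26, 0.706 and 0.648 CPM in No SCI, at 0.696, 0.925, 1.06 and 1.85 CPM in CONT SCI and at 1.06, 1.76, 0.775 and 0.665 CPM in TX SCI. With shallow water walking it was at 1.51, 0.791, 0.333, 1.23 and 1.24 CPM. Within each sample set the groups overlapped, and no neighbouring means differed by more than the larger of both SDs. CONT SCI + SWIM and CONT SCI + Tiny, which belong to different sets, did not overlap. The share of all genes that part those groups in this way was not counted. Asns passed the test in 0 of 16 comparisons. Its log2 fold change was 0.70 (SE 0.37) and 0.04 (SE 0.40) for the tiny and large cages and 0.53 (SE 0.38) and 0.46 (SE 0.42) for contusion and transection against the uninjured rats of each set. The mean contusion value of 0.62 (SE 0.28, unadjusted p = 0.0394, adjusted p = 0.347) had the only unadjusted p under 0.05.

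**Figure D3:**
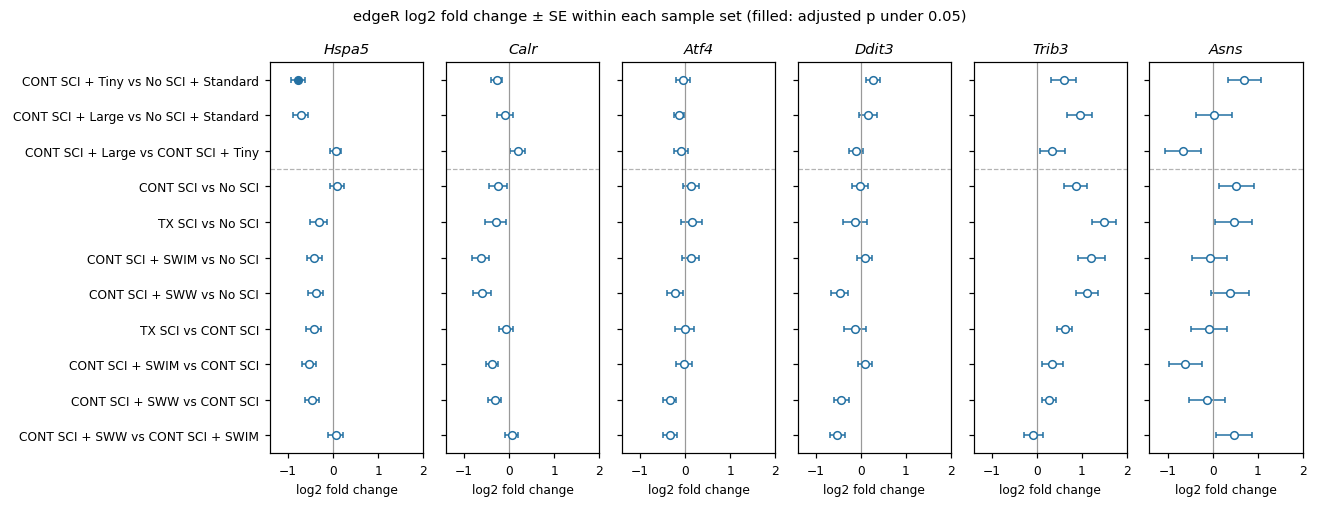
edgeR log2 fold change (points) ± SE (bars) of each gene in the 11 comparisons made within a sample set, with filled points for an adjusted p under 0.05 and a dashed line between the sets. Hspa5 in CONT SCI + Tiny against No SCI + Standard, at -0.78, is the only filled point, and the farthest point from 0 is Trib3 in TX SCI against No SCI, at 1.499.

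The direction of the fitted values differed between the genes. Against No SCI, TX SCI gave -0.32 (SE 0.19) for Hspa5 and -0.30 (SE 0.23) for Calr, where Trib3 gave 1.499, Atf4 0.15 (SE 0.24) and Ddit3 -0.13 (SE 0.26). Shallow water walking gave values below 0 against No SCI for Hspa5 (-0.39, SE 0.17), Calr, Atf4 (-0.23, SE 0.17) and Ddit3, and values above 0 for Trib3 and Asns (0.39, SE 0.42). These values share the No SCI rats, and none of the 6 genes passed edgeR's test in either comparison.

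Whether the genes moved together from rat to rat was examined after each rat's log2(CPM + 1) had been centred on its group mean, over 37 rats and 15 pairs of genes, with permutation of rats within groups. The pair with the highest r was Atf4 and Ddit3, with Pearson's r = 0.493 (permutation p = 0.00425, adjusted p = 0.0637) and Spearman's rho = 0.529, and r = 0.519 without the 2 rats farthest from the median of Atf4. Within the SCI + Exercise set r was 0.738 (n = 22, permutation p = 0.00137, adjusted over 15 pairs 0.0205), with rho = 0.746 (adjusted p = 0.0141) and r = 0.712 without the 2 farthest rats. Within the SCI + In-Cage Activity set it was -0.0418 (n = 15). Whether the sets differ in this was not tested. The share of all genes with a higher r within the SCI + Exercise set was not counted. Library quality was not taken into account in r. In TX SCI and CONT SCI + SWW the rat with the highest Atf4 had the fewest genes with a read (14682 and 14859). In No SCI, CONT SCI and CONT SCI + SWIM it did not.

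Hspa5 and Calr, the genes with an ERSE in the promoter, had r = 0.386 (n = 37, permutation p = 0.0218, adjusted p = 0.163), with 0.553 in the SCI + Exercise set (permutation p = 0.0134, adjusted p = 0.101) and 0.121 in the SCI + In-Cage Activity set. Trib3 had r = 0.00327 with Atf4 and -0.0382 with Ddit3. Its highest r was with Asns, 0.308 (permutation p = 0.0994, adjusted p = 0.373). None of the 15 pairs passed the adjusted threshold over the 37 rats. The values of all pairs share the same libraries.

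**Figure D4:**
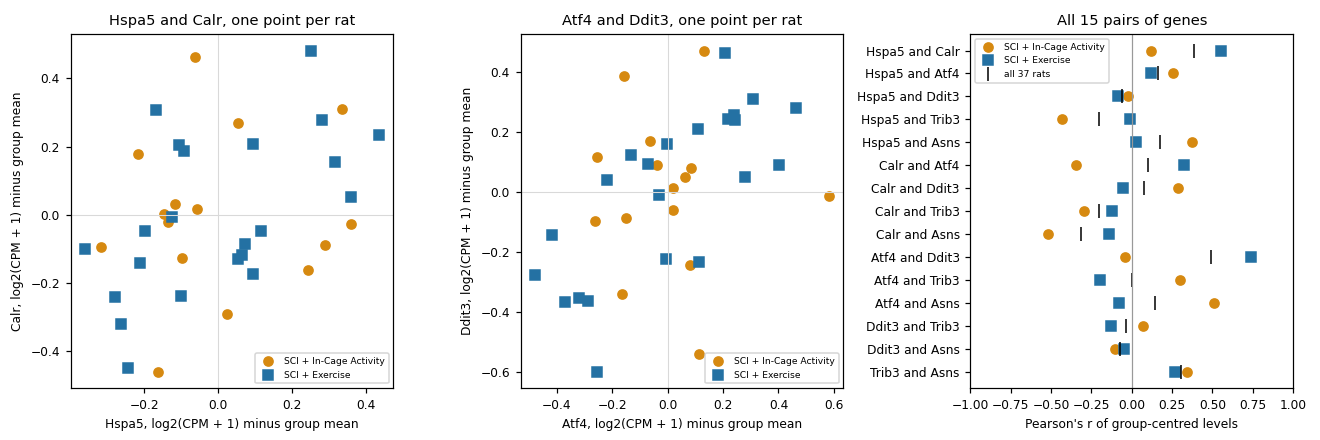
Level of Calr against Hspa5 and of Ddit3 against Atf4 (left and middle, log2(CPM + 1) minus the group mean, 1 point per rat), and Pearson's r of all 15 pairs of genes by sample set (right). The r of Atf4 and Ddit3 is 0.738 in the 22 rats of the SCI + Exercise set and -0.0418 in the 15 rats of the SCI + In-Cage Activity set.

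Among the 9092 other genes with a mean of at least 100 counts and a read in every rat, the one whose group-centred level was most like that of Calr over the 37 rats was ENSRNOG00000050197 (r = 0.926), and for Atf4 it was ENSRNOG00000016912 (r = 0.834). For Hspa5, Ddit3, Trib3 and Asns the highest r was 0.75, 0.76, 0.68 and 0.676. Genes with r above 0.5 made up 13.1% of these genes for Atf4 and 9.95% for Ddit3, but 0.649% for Hspa5 and 0.242% for Trib3. A higher r than that of Atf4 with Ddit3 was found for 13.6% of them with Atf4 and for 10.5% with Ddit3. A higher r than that of Hspa5 with Calr was found for 2.24% with Hspa5 and for 12.3% with Calr.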

How the data were processed

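The authors used STAR to align single-end reads to Rn6 and HTSeq to count those on Ensembl genes other than mitochondrial ones. They deposited a table of raw counts, 24613 genes by 37 libraries, without normalization. Per the labels' processing notes, read quality was checked with FastQC 0.10.1. Groups and replicate numbers come from the sample labels. Nothing says that libraries of a group are anything but separate rats, and the 68 pairs within groups differed by more than sampling noise (lowest reduced chi-square 31).

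From these counts, each pair of groups was fitted on its own libraries with edgeR 4.0.16 in R 4.3.3 (TMM, filterByExpr at 10 counts and a total of 15, robust quasi-likelihood test, Benjamini-Hochberg adjustment over all genes passing the filter, threshold 0.05). The 6 genes passed the filter in all 16 comparisons. The mean and the difference of the contusion effect over both sets came from 1 fit of No SCI + Standard, CONT SCI + Tiny, No SCI and CONT SCI, and the mean of both exercised groups from 1 fit with CONT SCI. SEs are the absolute log2 fold change divided by the square root of F. Correlations used 100000 permutations in Python 3.11.15. Alternatives were DESeq2 1.42.0, size factors in place of TMM, no filter, a block for the replicate number, the groups of the sets in 1 fit, and leaving out each rat. The fits were tested on simulated data first.

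The 6 genes, the comparisons and the lists were chosen with earlier results of these data known. The rule for naming was that every one of the 6 is described in every group, and that at most 2 of the most alike genes are named, since no symbols could be paired with them. Those named had the highest r. Symbols of the 6 came with the list of identifiers. The reference table pairs 0 of its 47357 genes with an Ensembl identifier, so wider lists of stress genes and the markers of liver cell types, set by symbol, were not analysed here.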

Additional observations from a re-analysis of the deposited data

Results flagged for a closer look

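Of the 48 combinations of a gene and a group, 3 had 1 rat that stood apart from the rest by Dixon's test at the 95% level, where chance flags about 1 in 20. Trib3 in No SCI replicate 2 was at 6.004 CPM, with the next rat of the group at 3.13 CPM, a gap of 0.896 of the group's range. The comparisons of Trib3 that this rat decides are given with and without it above. This rat also had the lowest Hspa5, Calr, Atf4 and Ddit3 and the highest Asns of its group. Leaving it out changed the number of all genes called in CONT SCI + SWW against No SCI from 50 to 1684. Trib3 in CONT SCI + SWW replicate 5 was at 10.8 CPM, with the next rat at 7.97 CPM (gap 0.759 of the range). Asns in CONT SCI + Tiny replicate 2 was at 3.13 CPM, with the next at 1.52 CPM (gap 0.761 of the range). The same rat had the highest Atf4 (440 CPM) and Trib3 (7.59 CPM) of its group.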

How the results depend on the processing

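No value of the 6 genes with an unadjusted p under 0.05 in the main test changed direction under the alternatives run. Of these alternative values, 481 stayed on the same side of the threshold, 26 passed it only in the alternative and 12 only in the main test. The number of the 6 genes called moved as follows. With DESeq2 it was 2 in place of 0 for CONT SCI + Large against No SCI + Standard, and 1 in place of 0 for TX SCI against No SCI and against CONT SCI, CONT SCI + SWW against CONT SCI and against No SCI, CONT SCI + SWIM against No SCI, the mean contusion effect, its difference between sets and the mean exercise effect. With all groups in 1 fit it was 1 in place of 0 for CONT SCI + Large against No SCI + Standard and for TX SCI, CONT SCI + SWIM and CONT SCI + SWW against No SCI, and 0 in place of 1 for CONT SCI against CONT SCI + Tiny. Without a filter on low counts it was 1 for CONT SCI + Large against No SCI + Standard in place of 0, and 1 for No SCI against No SCI + Standard in place of 2. Leaving out 1 rat at a time gave 0 to 1 for CONT SCI + Tiny against No SCI + Standard, 0 to 2 for CONT SCI + Large, 0 to 1 for CONT SCI and TX SCI against No SCI, for CONT SCI + SWW against CONT SCI and for the difference between sets, 0 to 2 for CONT SCI + SWW against No SCI, and 1 to 2 for both comparisons across sets. For the fits that left out 1 rat, shares of all genes called are given above only without No SCI replicate 2. In CONT SCI + SWW against No SCI that share went from 0.394% to 13.2% without this rat. The other counts from such fits therefore cannot be set beside all genes. The causes were not tested. Of the 15 pairs of genes, 1 was correlated past the threshold within the SCI + Exercise set, in place of 0.

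Replicate numbers did not pair the rats, since in no comparison did every same-numbered pair deviate together with r over 0.1 (r from -0.498 to 0.635). With the replicate block, No SCI against No SCI + Standard called 1 of the 6 genes in place of 2, and Atf4 was not called (-0.50, adjusted p = 0.0749); the block changed no other call of the 6 genes. Over all genes, DESeq2 called 1375 in place of 4 for CONT SCI + Large, 2523 in place of 1479 for CONT SCI + Tiny, 63 in place of 1 for CONT SCI against No SCI, 254 in place of 1 for CONT SCI + SWIM against CONT SCI, 291 in place of 8 for TX SCI against No SCI, 363 in place of 4 for TX SCI against CONT SCI, 910 in place of 96 and 936 in place of 50 for CONT SCI + SWW against CONT SCI and No SCI, 200 in place of 1 for CONT SCI + SWIM against No SCI, 89 in place of 3 and 773 in place of 25 for the mean contusion effect and its difference between sets, and 618 in place of 84 for the mean exercise effect. With 4 or 5 rats a group, the spread between rats limits the precision for 5 of the genes, and counting adds to it for Asns.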
